A study of Mus musculus with 4 samples.

Results

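Normal repair was read from control callus at 4 and at 7 days after fracture (dpf), in 11650 cells assigned to 3 compartments by a few UMI limits each, out of 13146 kept cells of control callus and 25479 kept cells of the series. Single-cell RNA sequencing counts captured mRNA molecules by their unique molecular identifiers (UMIs), and each UMI is thus 1 molecule of a gene caught from a cell. Haematopoietic cells had at least 1 UMI of *Ptprc* and at most 10 of *Col1a1*, endothelial cells at least 2 of *Pecam1*, at least 1 of *Cdh5* and 0 of *Ptprc*, and mesenchymal cells at least 20 of *Col1a1*, at least 1 of *Prrx1* and 0 of *Ptprc*. The endothelial and mesenchymal limits were both met by 10 cells at 4 dpf and 61 at 7 dpf, which count once in that number and in both compartments below. Callus came from C57BL/6J wild-type mice with a tibia fracture, 3 months old and male per the methods, that carried no engineered allele and received vehicle, whereas RA mice of the same series received K/BxN serum, which brings on arthritis. Each time point is 1 library made from 1 pool of callus scraped along the periosteum and digested, so no difference has a replicate check, no p-value is given, and time, pool and library preparation cannot be told apart.

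A fracture in long bone first fills with clot and inflammatory cells, and progenitors of the periosteum and the surrounding soft tissue then spread into the gap. In endochondral ossification these progenitors become chondrocytes, which lay down a matrix of type II collagen and aggrecan, enlarge and switch on type X collagen, and are replaced by bone once vessels and osteoclasts enter. Macrophages clear dead cells and matrix on the way, and endothelial cells supply both oxygen and signals to the skeletal cells.

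Each compartment had the highest summed level of the markers named after it, in part by construction, since the gates choose cells by similar genes. Summed over the marker lists, haematopoietic markers were at 14555 CPM, UMIs of a gene scaled to 1000000 UMIs of the compartment, in haematopoietic cells at 4 dpf and 16123 at 7 dpf, against 74.7 and 90.6 in mesenchymal cells. Endothelial markers were at 3415 and 3196 CPM in endothelial cells, against 115 and 126 in haematopoietic cells. Markers of mesenchymal cells were at 36042 and 29621 CPM in mesenchymal cells, and markers of adipocytes were near 0 in every compartment. Mesenchymal markers in the other compartments were higher at 7 dpf, at 201 and then 387 CPM in haematopoietic cells and at 1039 and then 2503 in endothelial cells, of which 10 of 633 and then 61 of 910 were the cells that also met the mesenchymal limits. Kept cells held 108438906 UMIs at 4 dpf and 141714572 at 7 dpf, and the libraries shared 9 cell barcodes. In all 3 compartments the cells were shallower at 7 dpf, with median UMIs per cell of 14412 and then 11054 in haematopoietic, 19493 and then 13934 in endothelial, and 31046 and then 24430 in mesenchymal cells.

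The make-up of the callus shifted from blood to connective tissue cells. Haematopoietic cells were 3448 of 5470 kept cells at 4 dpf (63.0%, exact Clopper-Pearson 95% interval 61.7 to 64.3) and 2813 of 7676 at 7 dpf (36.6%, 35.6 to 37.7). Mesenchymal cells went from 943 (17.2%, 16.2 to 18.3) to 2974 (38.7%, 37.7 to 39.8). Endothelial cells stayed near the same share, with 633 (11.6%, 10.7 to 12.4) and then 910 (11.9%, 11.1 to 12.6). These intervals, like all others given here, cover counting error only, and a share of the digested cells says nothing of how many there were in the callus. Cells in none of the compartments were 8.34% at 4 dpf and 13.5% at 7 dpf. Of the cells with a *Ptprc* UMI, 2.54% and then 11.4% were over the *Col1a1* limit, so the haematopoietic share leaves out more cells at 7 dpf, and without that limit it was 64.7% and then 41.4%.

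**Figure D1:**
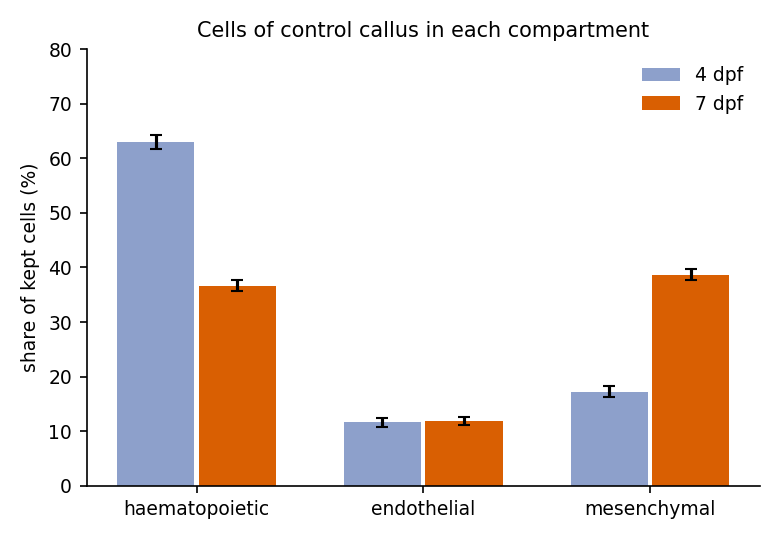
Share of kept cells (%, y axis) in the haematopoietic, endothelial and mesenchymal compartments of control callus at 4 and 7 dpf, 1 library each; error bars are exact 95% binomial intervals. Haematopoietic cells go from 63.0% to 36.6% and mesenchymal cells from 17.2% to 38.7%, while endothelial cells are at 11.6% and 11.9%.

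UMIs were summed over the cells of a compartment and divided by the sum of all genes to give CPM, and a gene was compared where it had at least 50 UMIs over both libraries. The log2 ratio of 7 over 4 dpf was computed with a pseudocount of 1 CPM, and a gene is said below to rise or fall where that ratio reached 1 in size. Intervals of a log2 ratio are exact conditional intervals of the counts without the pseudocount, so for genes at low CPM in 1 library they can lie farther from 0 than the ratio itself. In mesenchymal cells 255 of 15847 genes rose, 1.61% of those compared, and 243 fell, 1.53%. In haematopoietic cells 180 of 14509 rose, 1.24%, and 50 fell, 0.345%. In endothelial cells 331 of 12917 rose, 2.56%, and 48 fell, 0.372%. The median gene was at 0.01 in haematopoietic, 0.06 in endothelial and 0.07 in mesenchymal cells on the log2 scale. The 5th and 95th percentiles were -0.33 and 0.51, -0.35 and 0.68, and -0.58 and 0.59. Counts of list members below are to be read beside these shares and values.

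Many of the rises outside the mesenchymal compartment were of genes whose level there at 7 dpf was under 50% of the highest of the 3 compartments. This was so for 260 of the 331 endothelial rises (78.5%) and for 100 of the 180 haematopoietic rises (55.6%), but for 41 of the 255 mesenchymal ones (16.1%). The cartilage genes were among them, and their summed level went from 15.2 to 152 CPM in haematopoietic and from 46.3 to 305 in endothelial cells. *Col2a1* had a UMI in 39.0% of haematopoietic cells at 7 dpf and in 47.8% of mesenchymal cells. With each cell thinned to 4000 UMIs these shares were 16.0% and 17.9%, so a single *Col2a1* UMI does not mark a cell as a chondrocyte in this library. The genes named by size below were therefore taken only where the gene reached 50 CPM in 1 of the libraries and the compartment's own level was at least 50% of the highest of the 3 compartments.

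Mesenchymal cells gained cartilage genes. Of 21 compared chondrogenic genes 19 rose and none fell, with a median log2 ratio of 4.21, against the 1.61% of all genes compared that rose. *Col2a1*, the main collagen of cartilage, went from 85 UMIs at 4 dpf to 137469 at 7 dpf, or from 2.98 to 1834 CPM (log2 8.85, interval 8.96 to 9.59), a 616-fold higher level. The gene lies on chromosome 15 (97975602 to 98004695, minus strand, GRCm38). Of the 10 largest mesenchymal rises 9 were on the chondrogenic list, and the remaining gene was *Ibsp* of the osteogenic list.

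The 3 chains of type IX collagen, which bind to the surface of type II fibrils, rose together. *Col9a1* was at 1.23 and then 183 CPM (log2 6.37), *Col9a2* at 0.665 and then 126 (6.25), and *Col9a3* at 1.54 and then 235 (6.54). The chains of type XI collagen, which lies inside the fibrils, were already in place at 4 dpf and rose less. *Col11a1* was at 247 and then 1108 CPM (log2 2.16), and *Col11a2* at 24.9 and then 158 (2.62). *Acan*, the large aggregating proteoglycan that holds water in cartilage, was at 34.0 and then 449 CPM (3.69), and *Hapln1*, the link protein that ties it to hyaluronan, at 1.51 and then 266 (6.73). *Comp* was high at both times, at 338 and then 651 CPM, and its log2 ratio of 0.94 did not reach 1.

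Transcription factors of the chondrocyte programme were already present at 4 dpf. *Sox9*, which is needed to form chondrocytes, was at 70.5 CPM at 4 dpf and 159 at 7 dpf (log2 1.17, interval 1.11 to 1.25). Its partner *Sox6* was at 14.3 and then 105 CPM (2.79), whereas *Sox5* was at 173 and then 157 (-0.14). The genes of the later, enlarged chondrocyte were all but missing at 4 dpf. *Col10a1* had 1 UMI at 4 dpf and 12170 at 7 dpf, or 0.0350 and 162 CPM, with an interval of the log2 ratio from 9.70 to 17.48. *Ihh*, the Hedgehog ligand that such cells secrete, also had 1 UMI at 4 dpf, and it was at 8.68 CPM at 7 dpf (interval 5.47 to 13.26). *Ptch1*, both a Hedgehog receptor and a target of the pathway, rose from 28.8 to 68.0 CPM (1.21), and *Gli1*, another target, was at 3.78 and then 7.58 (0.84).

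Bone genes rose as well, and unevenly. Of 17 compared osteogenic genes 11 rose and none fell, with a median log2 ratio of 1.61, against 1.61% of all genes rising. *Ibsp*, the bone sialoprotein of mineralizing matrix, went from 132 UMIs to 64348, or from 4.62 to 858 CPM (log2 7.26, interval 7.29 to 7.79). *Alpl*, the phosphatase that frees phosphate for mineral, was at 4.83 and then 89.9 CPM (3.96), and *Smpd3*, a sphingomyelinase also needed for mineralization, at 1.93 and then 46.6 (4.02). *Runx2*, the master regulator of osteoblasts that enlarged chondrocytes also use, was at 96.6 and then 228 CPM (1.23), and *Sp7*, which acts after it, at 0.560 and then 8.90 (2.67). The gene of osteocalcin, *Bglap*, a mark of mature osteoblasts, had 3 UMIs at 4 dpf and 1451 at 7 dpf, and was at 19.4 CPM at 7 dpf, with an interval of the log2 ratio from 5.98 to 9.80. *Pth1r*, the receptor for parathyroid hormone, was at 32.7 and then 114 CPM (1.77), and at -0.14 on the log2 scale with cells of at least 5 *Col2a1*, 3 *Ibsp* or 3 *Acan* UMIs left out. *Sparc*, which all of these cells make in bulk, was at 8470 and then 7571 CPM (-0.16).

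**Figure D2:**
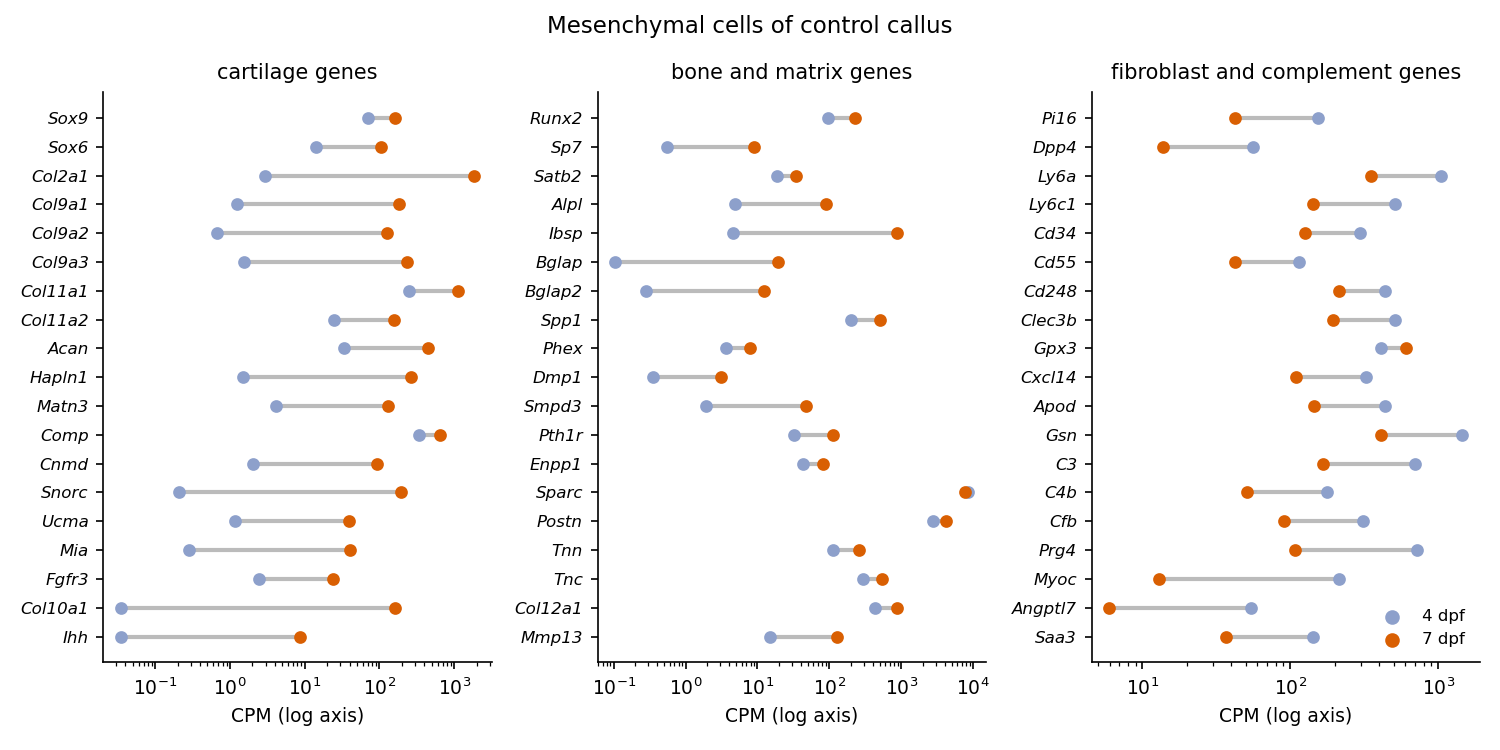
Levels in mesenchymal cells of control callus (CPM, log x axis) at 4 and 7 dpf, 1 library each, for cartilage genes (left), bone and matrix genes (middle) and fibroblast and complement genes (right); a grey line joins the levels of a gene. *Col2a1* goes from 2.98 to 1834 CPM and *Ibsp* from 4.62 to 858, while *Prg4* goes from 720 to 108 and *Pi16* from 153 to 42.3.

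A small number of cells carried these rises. At 7 dpf 90% of all *Col2a1* UMIs were in 113 of 2974 mesenchymal cells (3.80%), 90% of *Ibsp* UMIs in 71 (2.39%), 90% of *Col10a1* UMIs in 20 (0.672%) and 90% of *Bglap* UMIs in 19 (0.639%). *Runx2* was spread far wider, with 90% of its UMIs in 1505 cells (50.6%). The single richest cell held 13.8% of the *Col10a1* UMIs and 25.1% of the *Bglap* UMIs. At 4 dpf 1 cell held 75.0% of the 132 *Ibsp* UMIs. Cells with at least 5 *Col2a1* UMIs went from 3 of 943 (0.318%, interval 0.0657 to 0.927) to 261 of 2974 (8.78%, 7.78 to 9.85), and cells with at least 3 *Ibsp* UMIs from 3 to 229 (7.70%, 6.77 to 8.72). Fewer such cells and less RNA of the gene per cell cannot be told apart in a summed level, and these cell counts show that the number of cells over a limit moved.

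Several bone genes lay largely in the cells with cartilage genes, and others less so. At 7 dpf 137 cells passed both limits, and none did at 4 dpf. The 261 cells with at least 5 *Col2a1* UMIs held 89.9% of all *Ibsp* UMIs, 88.7% of *Bglap*, 67.1% of *Alpl*, 66.9% of *Sp7*, 46.7% of *Phex* and 37.1% of *Spp1*, beside 97.4% of *Col10a1* and 96.8% of *Hapln1*. They held 34.6% of the *Sox9* and 19.7% of the *Runx2* UMIs. *Mmp13*, the collagenase that opens cartilage matrix, lay elsewhere. It rose from 15.1 to 126 CPM (log2 2.98), and the *Col2a1* cells held 4.72% of its UMIs, whereas the 229 cells with at least 3 *Ibsp* UMIs held 36.0%. Of 52 cells with at least 3 *Col10a1* UMIs, 49 passed the *Col2a1* limit and 43 the *Ibsp* limit. Doublets were called for 45 of the 2974 mesenchymal cells (1.51%), and the part of free RNA and doublets in this overlap was not tested. With the cells over the *Col2a1* and *Ibsp* limits, and those with at least 3 *Acan* UMIs, left out, the log2 ratio was 2.82 for *Col2a1* and 1.45 for *Alpl*, and the medians were 0.64 for the chondrogenic and 0.72 for the osteogenic list. These values are lower by construction, since genes of both lists set the limits.

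**Figure D3:**
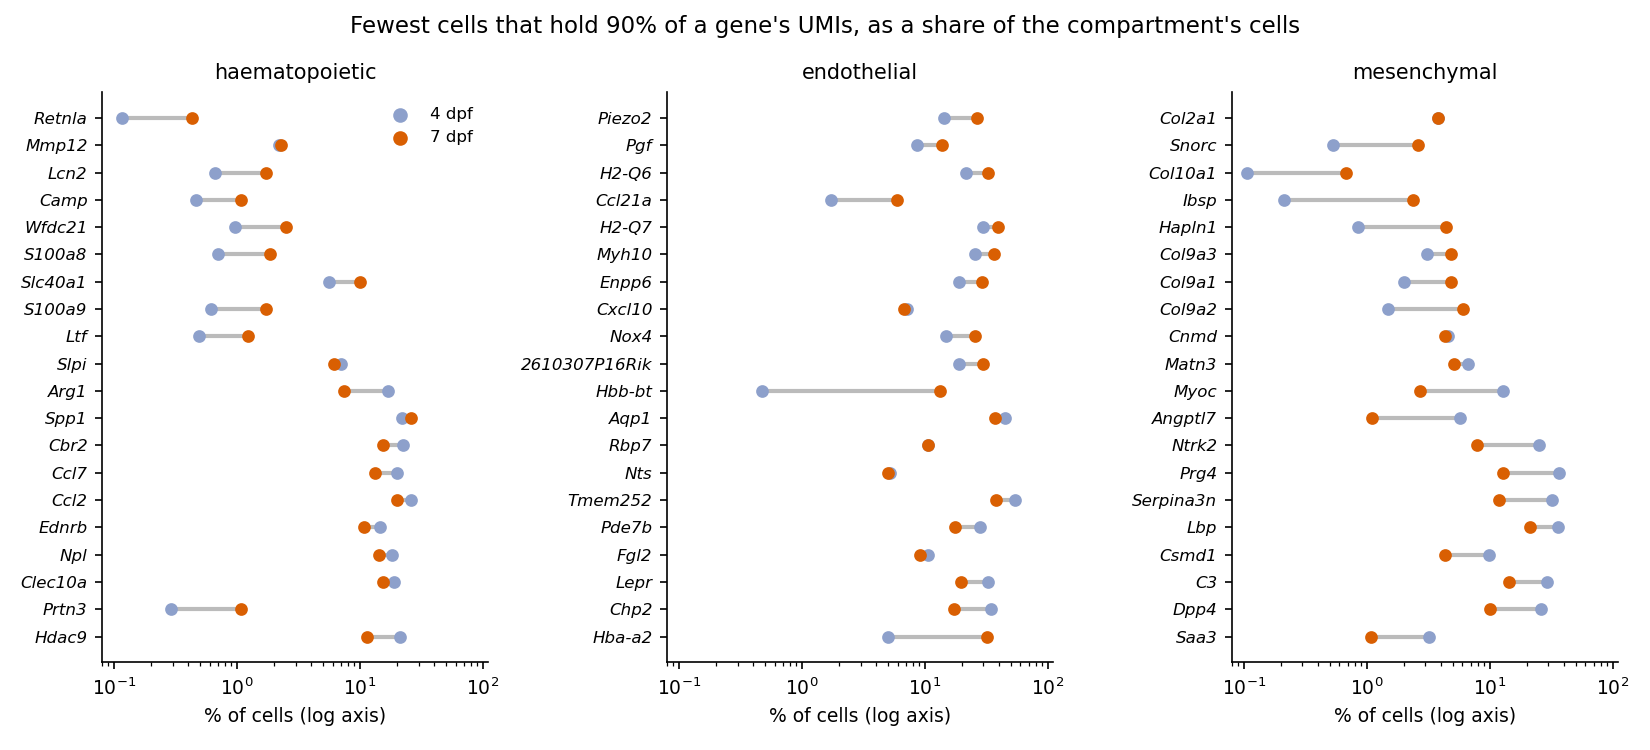
Smallest share of a compartment's cells that together hold 90% of a gene's UMIs (%, log x axis) for the 10 largest rises (upper) and 10 largest falls (lower) in each compartment of control callus, at 4 and 7 dpf; the grey line joins both times. At 7 dpf *Col10a1* sits at 0.672% and *Col2a1* at 3.80% of mesenchymal cells, whereas *Prg4* goes from 36.5% to 12.9%.

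The promoters of 4 of the genes behind these rises are shown, from RefSeq on GRCm38.p6, each with the 250 bases before and 50 bases after the start of the first listed transcript. They were searched on both strands for the SOX-type motif ACAATG and the RUNX-type motif ACCACA, which are the core letters that these families of factors prefer, and matches are in capitals, read on the gene's own strand. *Col10a1* has no match and stands beside them for that reason, and neither *Col2a1* nor *Snorc* had an entry in the table.
Ibsp, chr5:104299037-104299336, + strand: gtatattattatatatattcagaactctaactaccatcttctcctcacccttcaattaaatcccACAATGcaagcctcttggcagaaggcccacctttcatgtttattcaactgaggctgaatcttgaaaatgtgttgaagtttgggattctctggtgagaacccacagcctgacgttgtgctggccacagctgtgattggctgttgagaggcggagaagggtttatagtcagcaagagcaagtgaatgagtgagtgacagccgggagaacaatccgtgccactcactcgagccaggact
Bglap, chr3:88384417-88384716, - strand: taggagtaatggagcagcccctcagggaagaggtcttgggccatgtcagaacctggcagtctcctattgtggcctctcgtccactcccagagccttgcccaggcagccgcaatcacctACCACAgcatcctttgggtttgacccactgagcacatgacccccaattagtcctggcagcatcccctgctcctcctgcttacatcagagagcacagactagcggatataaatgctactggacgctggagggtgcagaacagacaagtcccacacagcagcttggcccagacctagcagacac
Hapln1, chr13:89540386-89540685, + strand: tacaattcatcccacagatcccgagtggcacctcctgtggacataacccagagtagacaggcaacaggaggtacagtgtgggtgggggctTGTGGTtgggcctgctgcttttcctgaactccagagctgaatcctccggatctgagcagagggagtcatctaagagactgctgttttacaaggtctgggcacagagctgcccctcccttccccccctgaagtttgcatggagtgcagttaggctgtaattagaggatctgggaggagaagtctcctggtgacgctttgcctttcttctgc
Col10a1, chr10:34389731-34390030, + strand: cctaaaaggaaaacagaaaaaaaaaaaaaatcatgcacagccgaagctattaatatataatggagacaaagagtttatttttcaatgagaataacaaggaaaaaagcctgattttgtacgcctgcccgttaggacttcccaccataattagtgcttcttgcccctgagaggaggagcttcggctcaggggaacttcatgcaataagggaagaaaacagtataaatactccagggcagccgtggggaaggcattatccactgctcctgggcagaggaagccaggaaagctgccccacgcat

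The match is of the SOX type in *Ibsp*, starting at -186 from the transcript start, and of the RUNX type in *Bglap* at -132 and, on the other strand, in *Hapln1* at -160. Over all 27025 promoters of this length, 12.8% held the SOX-type and 16.9% the RUNX-type motif. The RUNX-type motif was in 6 of 16 osteogenic promoters (37.5%, interval 15.2 to 64.6) and in 3 of 16 chondrogenic ones (18.8%). The SOX-type motif was in 1 of 16 chondrogenic (6.25%) and in 2 of 16 osteogenic promoters (12.5%). The plan had named only the sterol regulatory element TCACNCCAC, for cholesterol synthesis promoters, and the other motifs were added. That element was in 1 of 15 cholesterol synthesis promoters (6.67%, interval 0.169 to 31.9), against 1.22% of all promoters. It was also in 2 of 16 chondrogenic (12.5%) and 1 of 16 osteogenic ones (6.25%). A match is a description of letters and no evidence of binding.

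The matrix that fills the early callus changed less. Of 15 provisional and periosteal matrix genes 2 rose and 1 fell, with a median log2 ratio of 0.47. Over all mesenchymal genes compared 1.61% rose and 1.53% fell. *Tnn*, tenascin W, was at 111 and then 255 CPM (log2 1.20), and *Col12a1*, a collagen that decorates fibrils, at 431 and then 880 (1.03). *Postn*, periostin, a mark of activated periosteal cells, was at 2796 and then 4200 CPM (0.59), and fibronectin, *Fn1*, at 3048 and then 3628 (0.25). The main fibrillar collagens stayed close to their early levels, with *Col1a2* at 13284 and then 12658 CPM (-0.07) and *Col3a1* at 15479 and then 12937 (-0.26). The mesenchymal gate asks for at least 20 UMIs of *Col1a1*, another fibrillar collagen, so these levels are not independent of how the cells were chosen. Of cells with a *Prrx1* UMI and no *Ptprc*, that limit left out 19.9% at 4 dpf and 11.8% at 7 dpf. Among small leucine-rich proteoglycans, which coat collagen fibrils, *Dcn* fell from 5525 to 2324 CPM (-1.25) and *Prelp* from 322 to 113 (-1.50), while *Bgn* was at 2664 and then 2752 (0.05).

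Genes of fibroblast precursors fell. Of 13 such genes 10 fell and none rose, with a median log2 ratio of -1.21, against the 1.53% of all mesenchymal genes that fell. *Pi16* and *Dpp4*, which mark the precursor-like fibroblasts found around vessels in many tissues, went from 153 to 42.3 CPM (-1.83, interval -1.92 to -1.79) and from 56.2 to 13.9 (-1.94, -2.13 to -1.90). *Ly6a*, the Sca-1 antigen, went from 1037 to 353 CPM (-1.55), and *Cd34* from 294 to 126 (-1.21). The 3 members that did not fall were *Dpt* (-0.35), *Mfap5* (-0.19) and *Gpx3*, at 410 and then 605 CPM (0.56). With cells thinned to 4000 UMIs, *Pi16* had a UMI in 19.1% of mesenchymal cells at 4 dpf and 7.97% at 7 dpf, against 1.77% and 1.56% of haematopoietic cells.

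Of 11 callus fibroblast genes 5 fell and none rose (median -0.86), against the 1.53% of all mesenchymal genes that fell. *Gsn*, gelsolin, which cuts actin filaments, went from 1451 to 408 CPM (-1.83), *Cxcl14*, a chemokine, from 323 to 109 (-1.56), and *Apod*, a lipid carrier, from 437 to 144 (-1.60). Both fibroblast lists depended on the upper limits on a cell, as did the largest single mesenchymal falls given below. Cells that met the mesenchymal gate but had over 50000 UMIs or over 7000 genes were 501 of 1487 (33.7%) at 4 dpf and 372 of 3548 (10.5%) at 7 dpf under the looser limits. Those 501 cells held 54.3% of the UMIs of the wider set, and in them the fibroblast precursor genes summed to 2126 CPM, against 5329 in the 943 cells within the limits. At 7 dpf the summed level was 2038 CPM over the limits and 3125 within them. With these cells taken in, the medians were -0.69 for fibroblast precursor and -0.40 for callus fibroblast genes, and 127 in place of 243 mesenchymal genes fell.

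The largest single mesenchymal falls were of secreted and surface genes. With looser cell limits each of the 10 largest was smaller but still past 1, at -3.06 to -1.28 in place of -3.93 to -1.94. Among these 10 are *Serpina3n*, *Lbp*, *Saa3* and *C3*, whose levels are given further below. *Myoc*, a secreted glycoprotein of connective tissue, had 6043 UMIs at 4 dpf and 971 at 7 dpf and was at 212 CPM at 4 dpf and at a 16.3-fold lower level at 7 dpf (log2 -3.93, interval -4.13 to -3.93). It lies on chromosome 1 (162639155 to 162649693, plus strand). *Angptl7* went from 53.9 to 5.98 CPM (-2.98), and *Prg4*, lubricin, which covers joint and tendon surfaces, from 720 to 108 (-2.72). With cells thinned, *Prg4* had a UMI in 56.4% and then 14.7% of mesenchymal cells, against 1.77% and 0.462% of haematopoietic cells. *Ntrk2*, a neurotrophin receptor, went from 70.0 to 8.68 CPM (-2.87), and *Csmd1*, a membrane protein, from 88.6 to 19.8 (-2.11). Of 7 tendon genes 2 fell, against 1.53% of all mesenchymal genes compared. These were *Kera*, a keratan sulphate proteoglycan, by 1.83 on the log2 scale and *Cilp2* from 32.0 to 14.7 (-1.07). *Scx*, the transcription factor of tendon cells, was at 46.6 and then 46.2 (-0.01).

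Acute-phase and inflammatory genes of the stroma were mostly lower at 7 dpf. Of 21 inflammatory stromal genes 5 fell and 1, *Mmp13*, rose, with a median log2 ratio of -0.65. Over all mesenchymal genes compared 1.53% fell and 1.61% rose. *Il6*, a cytokine of the early response, went from 44.9 to 15.3 CPM (-1.49), *Saa3*, serum amyloid A3, from 143 to 36.7 (-1.94), and *Lcn2*, lipocalin 2, from 46.3 to 3.51 (-3.39). Besides this list, *Serpina3n*, a protease inhibitor, went from 259 to 42.5 CPM (-2.58), and *Lbp*, which carries bacterial lipopolysaccharide, from 278 to 62.3 (-2.14). The neutrophil chemokine *Cxcl1* was at 485 and then 280 CPM (-0.79), and *Ptgs2*, the inducible prostaglandin synthase, at 162 and then 110 (-0.56), and neither reached 1. Of 15 interferon response genes 4 fell in mesenchymal cells (median -0.66), against 1.53% of all genes compared, with *Ifi27l2a* from 748 to 233 CPM (-1.68) and *Irf7* from 47.5 to 21.9 (-1.08). With looser cell limits that median was -0.19.

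Of 19 genes of BMP signalling, which drives cartilage and bone formation, 1 rose and 3 fell (median -0.03). Beside this list and those that follow, 1.61% of all mesenchymal genes compared rose and 1.53% fell. *Bmp4* went from 19.9 to 4.45 CPM (-1.94) and *Bmper*, which binds BMPs, from 139 to 68.8 (-1.01), while *Id1*, a target, was at 21.3 and then 37.0 (0.77). Of 14 Wnt signalling genes 2 rose and 3 fell. *Frzb*, a secreted Wnt inhibitor of cartilage, rose from 1.16 to 17.7 CPM (3.12), whereas the related *Sfrp2* fell from 586 to 289 (-1.02) and *Sfrp4* from 191 to 75.3 (-1.33). The ligand *Wnt5b* rose from 11.7 to 35.8 CPM (1.53). All 8 compared Hedgehog signalling genes were higher at 7 dpf, and 2 of them rose (median 0.58, against 0.07 over all mesenchymal genes, of which 1.61% rose). Of 10 IGF signalling genes 2 rose, *Igf2* from 15.1 to 122 CPM (2.93) and *Igfbp2* from 0.806 to 3.09 (1.18). Of the factors that act on osteoclasts, *Csf1*, a growth factor for their precursors, fell from 109 to 53.4 CPM (-1.01), and *Tnfsf11*, which encodes RANKL, was at 17.6 and then 29.6 (0.72). Notch signalling genes had a median of 0.02, with *Rbpj* at 123 and then 107 CPM (-0.20) and *Hey1* at 6.79 and then 13.6 (0.91).

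**Figure D4:**
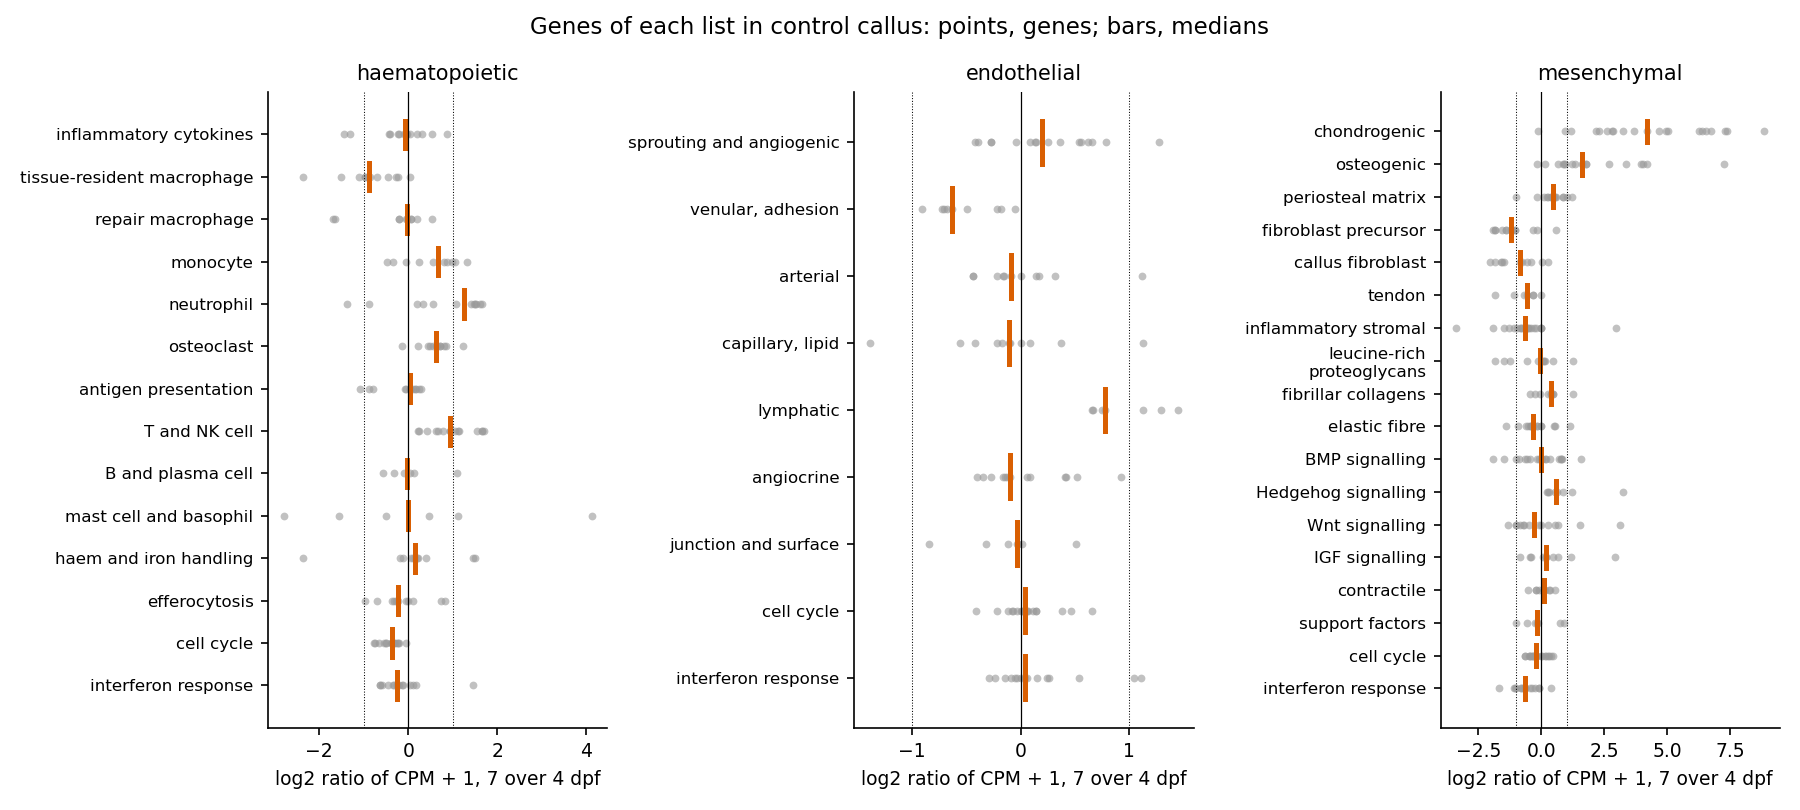
Log2 ratio of CPM + 1 at 7 over 4 dpf (x axis) for each compared gene (grey points) of the lists tied to a compartment (rows). The cell cycle and interferon response lists are drawn in every compartment. Bars mark the median of each list, and dotted lines mark -1 and 1. Chondrogenic genes have the highest median, at 4.21, and fibroblast precursor genes the lowest, at -1.21, while all haematopoietic and endothelial medians but that of neutrophil genes, at 1.24, lie within the dotted lines.

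In haematopoietic cells most neutrophil granule genes rose, and genes of tissue-resident macrophages were lower at 7 dpf. *S100a8*, a subunit of the calprotectin that neutrophils carry in bulk, went from 1121 to 3193 CPM (log2 1.51, interval 1.50 to 1.52), and *Camp*, the cathelicidin of their granules, from 221 to 671 (1.60). Of 12 neutrophil genes 7 rose and 1 fell, with a median of 1.24, against the 1.24% of all genes that rose. The gene that fell was *Mpo*, myeloperoxidase, from 22.9 to 8.22 CPM (-1.37), and *Elane*, elastase, was at 49.5 and then 26.3 (-0.89). Both belong to the earliest granules of the lineage.

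A few cells held nearly all of the *S100a8* UMIs. Cells in which *S100a8* and *S100a9* made up at least 1% of the UMIs were 40 of 3448 at 4 dpf (1.16%, interval 0.830 to 1.58) and 76 of 2813 at 7 dpf (2.70%, 2.13 to 3.37). They held 97.3% and then 98.6% of the *S100a8* UMIs of the compartment, a share that the limit favours, since *S100a8* helps to set it. Their median UMI counts were 21344 and then 19214, above the medians of the whole compartment, and cells with under 4000 UMIs or under 2000 genes had been left out. Over the other settings tried the median of the list lay between 0.95 and 1.86.

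Genes of tissue-resident macrophages were lower at 7 dpf. Of 12 such genes 3 fell and none rose (median -0.88, against 0.345% of all genes that fell). *Cd163*, the receptor that takes up haemoglobin, went from 37.6 to 6.53 CPM (-2.36), *Cbr2* from 184 to 63.4 (-1.52), and *Lyve1*, a hyaluronan receptor, from 11.5 to 4.81 (-1.10). *Folr2*, a folate receptor of such macrophages, was at 157 and then 79.7 CPM (-0.97). With cells thinned it had a UMI in 28.4% and then 18.8% of haematopoietic cells, against 0.632% and 0.330% of endothelial cells. *Pf4* was at 2349 and then 1299 CPM (-0.85).

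Among genes of repair macrophages, *Arg1* and *Spp1* fell and the rest of the 10 did not. Over all haematopoietic genes compared 0.345% fell. *Arg1*, arginase 1, which turns arginine towards collagen building blocks, had 16555 UMIs and then 3245 and went from 291 to 89.8 CPM (log2 -1.68, interval -1.75 to -1.64). It had a UMI in 26.4% and then 10.6% of thinned haematopoietic cells, against 0.530% and 0.841% of mesenchymal ones. *Spp1*, osteopontin, went from 5092 to 1618 CPM (-1.65), while in mesenchymal cells it went the other way, from 202 to 513 CPM (1.34). The mesenchymal direction did not hold with looser cell limits, which gave -0.20. *Trem2*, *Gpnmb* and *Fabp5*, genes of lipid-laden macrophages, had log2 ratios of 0.06, -0.20 and 0.06, and *Apoe*, which carries lipid out of cells, was at 9748 and then 14142 CPM (0.54).

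Chemokines for monocytes fell, and most other cytokines neither rose nor fell. *Ccl2* went from 363 to 147 CPM (-1.30) and *Ccl7* from 282 to 103 (-1.44), the 2 members that fell among 14 inflammatory cytokines and enzymes (median -0.07). Over all haematopoietic genes compared 0.345% fell. *Il1b* was at 171 and then 160 CPM (-0.09), *Tnf* at 35.4 and then 29.7 (-0.24), and *Cxcl2* at 381 and then 369 (-0.04). Of 10 monocyte genes 2 rose, against 1.24% of all haematopoietic genes compared. These were *Chil3* from 62.4 to 131 CPM (1.06) and *Hp*, haptoglobin, from 29.2 to 74.5 (1.32), and *Ly6c2* was at 73.1 and then 146 (0.99). *Ccr2*, the receptor for *Ccl2* and *Ccl7*, was at 205 and then 160 CPM (-0.35).

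The single largest haematopoietic rise among genes that reached 50 CPM was of *Retnla*, a secreted protein of alternatively activated macrophages, from 491 UMIs to 3123, or from 8.62 to 86.4 CPM (log2 3.18, interval 3.19 to 3.47), a 10.0-fold higher level. It lies on chromosome 16 (48842551 to 48844461, plus strand). Of its UMIs 90% were in 4 cells at 4 dpf and in 12 at 7 dpf, and the richest cell held 46.6% and then 17.8%. *Mmp12*, the elastase of macrophages, rose from 41.7 to 140 CPM (1.73). Of 11 genes that handle haem and iron, *Slc40a1*, the iron exporter, rose from 34.1 to 98.6 CPM (1.50) and *Spic*, the transcription factor of iron-recycling macrophages, from 13.7 to 39.4 (1.46), while *Hmox1*, which breaks down haem, was at 1503 and then 1621 (0.11). Both these rises and the fall of the haemoglobin receptor *Cd163* were thus in 1 list, with a median of 0.16. Over all haematopoietic genes compared 1.24% rose and 0.345% fell.

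Genes known from bone-resorbing cells moved upward by small steps in haematopoietic cells. Of 12 osteoclast genes 11 were higher at 7 dpf and 1 rose past the limit, with a median of 0.63, against 0.01 over all haematopoietic genes. *Ctsk*, the collagenase of osteoclasts, was at 356 and then 554 CPM (0.64), *Acp5*, their acid phosphatase, at 289 and then 422 (0.55), and *Mmp9* at 152 and then 235 (0.62). With cells thinned, *Ctsk* had a UMI in 10.7% and then 12.9% of haematopoietic cells, against 62.8% and 68.2% of mesenchymal cells. *Acp5* had a UMI in 23.1% and then 26.6%, against 6.68% and 7.03%, so these levels do not stand for osteoclasts alone. The gene that rose was *Oscar*, a receptor on osteoclast precursors, from 0.843 to 3.32 CPM (1.23). All 15 compared genes of T and natural killer cells were higher at 7 dpf, and 7 rose, with a median of 0.93. Over all haematopoietic genes compared 1.24% rose, and the median was 0.01. The T cell receptor genes *Cd3d* and *Trbc2* went from 3.23 to 12.6 (1.69) and from 4.86 to 17.5 CPM (1.66), and *Ifng* from 1.54 to 4.54 (1.12). *Cd3e* had a UMI in 0.609% and then 1.53% of thinned haematopoietic cells and in none of the endothelial ones.

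B cell genes had a median of -0.02, and genes of antigen presentation 0.04, with *Cd74* at 2732 and then 3224 CPM (0.24). *Mcpt8*, a protease of basophils, went from 7 UMIs to 671, or from 0.123 to 18.6 CPM, but 3 cells held 90% of the later UMIs. Genes that cells use to divide were lower in all 18 cases and none fell past the limit (median -0.36, against 0.01 over all genes), with *Mki67* at 45.6 and then 35.3 CPM. In endothelial cells the same list had a median of 0.04 and in mesenchymal cells of -0.21.

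**Figure D5:**
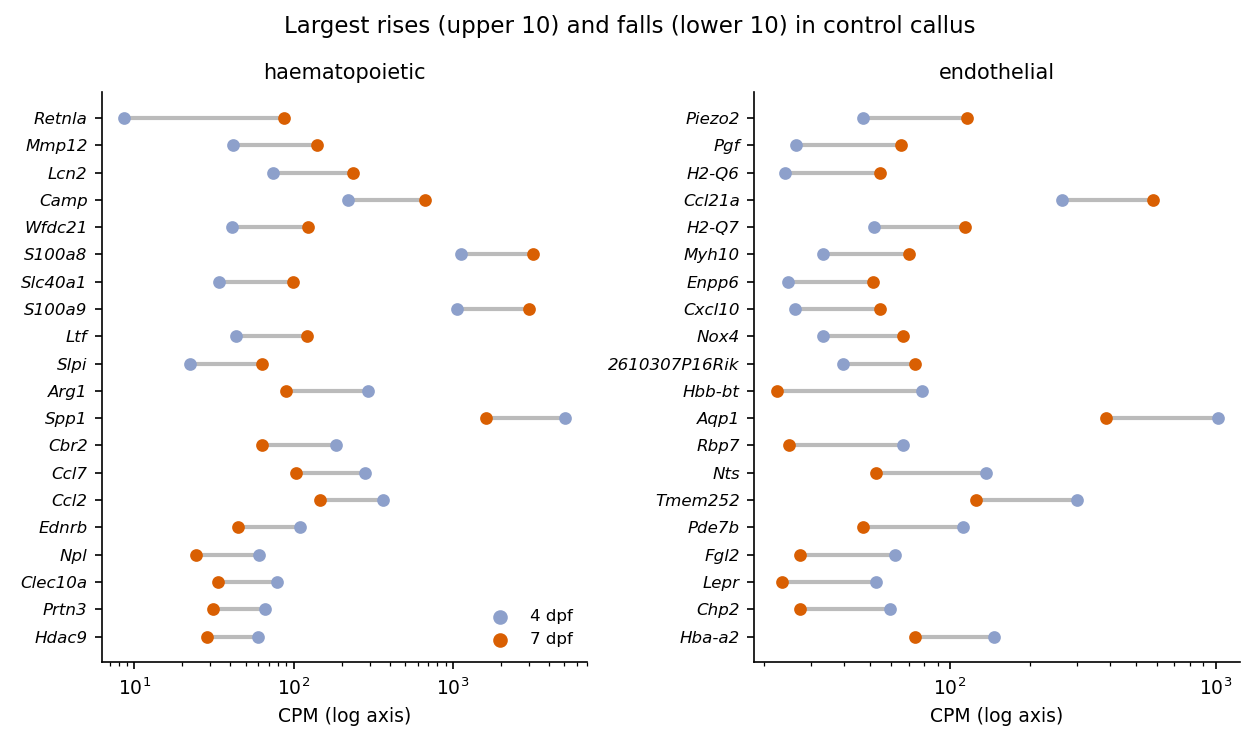
Levels (CPM, log x axis) at 4 and 7 dpf, 1 library each, of the 10 largest rises (upper) and 10 largest falls (lower) in haematopoietic (left) and endothelial cells (right) of control callus; a grey line joins the levels of a gene. *S100a8* goes from 1121 to 3193 CPM and *Spp1* from 5092 to 1618 in haematopoietic cells, and *Aqp1* goes from 1019 to 387 in endothelial cells.

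In endothelial cells lymphatic genes were higher and venular genes lower at 7 dpf, and *Aqp1* fell. *Aqp1*, a water channel of capillaries, had 13835 UMIs and then 5611 and went from 1019 to 387 CPM (log2 -1.39, interval -1.44 to -1.35). It lies on chromosome 6 (55336432 to 55348555, plus strand). It had a UMI in 66.8% and then 48.1% of thinned endothelial cells, against 2.99% and 2.10% of haematopoietic ones. In thinned mesenchymal cells the share went the other way, from 8.06% to 13.4%. Among 11 capillary and lipid transport genes *Aqp1* fell and 1, *Timp4*, rose from 0.810 to 2.97 CPM (median -0.11). Over all endothelial genes compared 2.56% rose and 0.372% fell. *Cd36* and *Fabp4*, which take up and carry fatty acids, were at -0.22 and -0.17.

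All 9 compared venular and leukocyte adhesion genes were lower at 7 dpf and none fell past the limit (median -0.63, against 0.06 over all endothelial genes). *Vwf*, the clotting factor stored in endothelial granules, was at 315 and then 167 CPM (-0.91, interval -0.98 to -0.84). *Selp* and *Sele*, the selectins that slow rolling leukocytes, were at 370 and then 226 (-0.71) and at 110 and then 71.2 CPM (-0.63). *Selp* had a UMI in 42.2% and then 28.6% of thinned cells, against 1.31% and 0.924% of haematopoietic cells. *Ackr1*, the chemokine receptor of venules, was at 196 and then 118 CPM (-0.72), and *Vcam1* at 114 and then 110 (-0.05).

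All 7 lymphatic genes were higher at 7 dpf and 3 rose, with a median of 0.78, against 2.56% of all endothelial genes that rose. *Ccl21a*, the chemokine that lymphatic vessels release, went from 265 to 579 CPM (1.13, interval 1.07 to 1.19), *Pdpn*, podoplanin, from 13.8 to 39.4 (1.45), and *Reln* from 19.5 to 49.3 (1.29). Of the *Ccl21a* UMIs 90% were in 11 of 633 endothelial cells at 4 dpf and in 54 of 910 at 7 dpf. With each cell weighted equally the ratio of *Ccl21a* was 0.42, so it did not reach 1 there. *Prox1*, the transcription factor that sets lymphatic identity, was at 49.0 and then 84.8 CPM (0.78), and it had a UMI in 6.16% and then 10.5% of thinned endothelial cells, against 0.464% and 0.462% of haematopoietic cells. With each cell weighted equally the median of the list was 0.42. With cells that held *Prox1* or were cycling left out it was 0.20, which is lower by construction, since *Prox1* is on this list.

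Of 16 sprouting and angiogenic genes 1 rose (median 0.19), against 2.56% of all endothelial genes compared. The gene that rose was *Pgf*, placental growth factor, from 26.4 to 65.3 CPM (1.27). Its ratio was 0.68 with looser cell limits and 0.58 with cells that held *Prox1* or were cycling left out, so it did not reach 1 there. *Angpt2*, which loosens vessels before they sprout, was at 71.4 and then 110 CPM (0.62), and the VEGF receptors *Kdr* and *Flt1* were at 257 and then 273 (0.09) and at 746 and then 618 (-0.27). *Mgp*, a calcification inhibitor, was the only 1 of 11 arterial genes that rose, from 226 to 493 CPM (1.12). The arterial list summed to 963 and then 1174 CPM in endothelial cells, but to 1485 and then 1954 in mesenchymal cells. The part of mesenchymal RNA in the *Mgp* rise was not tested. Angiocrine genes, which endothelial cells use to signal to neighbours, had a median of -0.10, and junction genes -0.03. Outside the lists, the largest rise within the limits for naming was of *Piezo2*, a channel opened by stretch, from 46.9 to 116 CPM (1.29). Mesenchymal cells held more of it, at 77.2 and then 124 CPM, and the part of their RNA in this rise was not tested. *Tmem252*, *Nts* and *Rbp7* fell from 300 to 125 (-1.25), from 137 to 52.5 (-1.36) and from 66.6 to 24.8 CPM (-1.39). The fall of the globin gene *Hbb-bt* (-1.78) turned to 0.38 with doublets left out, and 3 cells held 90% of its UMIs at 4 dpf.

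Cholesterol synthesis genes, which make sterols for new membrane, had medians of 0.12 in haematopoietic, -0.01 in endothelial and 0.03 in mesenchymal cells, and glycolysis and hypoxia genes of -0.17, -0.06 and -0.01. Of the latter, *Adm*, which encodes adrenomedullin, fell by 1.23 on the log2 scale in mesenchymal cells. None of 11 efferocytosis genes, which macrophages use to take up dead cells, rose or fell (median -0.23). Of 15 genes of elastic fibres and microfibrils in mesenchymal cells *Fbn2*, fibrillin 2, rose by 1.14 on the log2 scale and *Efemp1* fell from 152 to 56.4 (-1.41). Over all mesenchymal genes compared 1.61% rose and 1.53% fell.

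The RA pair of libraries gives the same interval of time under arthritis, with no library shared. Of the control rises that could be compared there, 202 of 251 mesenchymal (80.5%), 135 of 174 haematopoietic (77.6%) and 285 of 320 endothelial ones (89.1%) had the same direction in RA callus, beside 49.2%, 55.8% and 58.5% of all genes. For falls this was 113 of 240 (47.1%), 18 of 47 (38.3%) and 19 of 46 (41.3%), beside 50.8%, 44.2% and 41.5%. Among all control rises, 78.5% of endothelial and 55.6% of haematopoietic ones were of genes under 50% of the highest compartment's level. How much of the shared direction lay in such genes was not tested. *Col2a1* had a log2 ratio of 8.01 in RA callus, and the chondrogenic list a median of 3.31. *Ibsp* was at 57.0 and then 215 CPM in RA callus (1.90) and at 4.62 and then 858 in control callus (7.26). The control level at 4 dpf rests on 132 UMIs, most of them in 1 cell. The osteogenic list had a median of 0.44 in RA against 1.61 in control callus. Differences between the pairs were not tested.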

How the data were processed

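Callus of control mice was profiled by single-cell RNA sequencing with Chromium Single Cell 3′ chemistry at 4 and 7 dpf, 1 library each, from 10000 loaded cells of 1 pool. The sample labels and the methods differ on the number of mice in a pool. The deposited values are UMI counts, unscaled, for 32285 genes in every barcode called as a cell. The authors obtained them with Cell Ranger 7.0.1 and mm10 according to the submitters' processing notes, and all were checked to be whole numbers. Cells were kept with 4000 to 50000 UMIs, 2000 to 7000 genes and at most 8% mitochondrial UMIs, the limits that the study used. No cells were clustered, and the gates were applied as given in the report.

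From the counts, CPM and log2 ratios with a pseudocount of 1 CPM were computed per compartment with numpy 2.4.6, pandas 2.3.3 and scipy 1.17.1 under Python 3.11.15, and matplotlib 3.10.9 drew the plots. Levels have exact Poisson, ratios exact conditional and shares exact Clopper-Pearson intervals at the 95% level. PCR copies are removed by the UMIs. The Scrublet routine of Scanpy 1.11.5 called doublets (53 cells at 4 dpf and 207 at 7 dpf), which were left out only as an alternative. Gene positions are on GRCm38. With simulated counts at these depths, all 100 genes changed 3-fold and all 100 changed 6-fold passed a log2 ratio of 1 in each compartment. None of 14301 unchanged haematopoietic, 12718 endothelial and 15646 mesenchymal genes did. These results are for each compartment as a whole, without the UMI counts of the changed genes and without values for single cells. Finding all changed genes therefore does not carry over to genes near the lower UMI limit for comparison. The lack of unchanged genes past the ratio likewise says nothing of variation between cells or libraries. The simulation thus cannot show how calls fare for genes with few UMIs or with UMIs in few cells. *Retnla* is such a gene, with 90% of its UMIs in 4 haematopoietic cells at 4 dpf and in 12 at 7 dpf.

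The members and the 54 gene lists were chosen with earlier results of these data known, and the lists of imprinted and complement genes after their values had been seen. Named genes were, per compartment, the 10 largest rises and falls that reached 50 CPM in 1 of the libraries and 50% of the highest level among the compartments there, without the gate genes. Of each list the first 2 members, the 4 largest ratios with at least 50 CPM, and members whose role the text needed were named. Alternatives were looser cell limits (at least 1000 UMIs and 500 genes, at most 15% mitochondrial UMIs, no upper limits), cells with genes of another compartment left out, no *Col1a1* limit, doublets left out, TMM scaling, a pseudocount of 10 CPM, at least 10 UMIs, cells weighted equally, and a narrower mix of cells within a compartment. Leaving out the cell with most UMIs of a gene was added after seeing the data. RA libraries were used only beside control values, and the remaining experiments of the study were not analysed here.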

Additional observations from a re-analysis of the deposited data

Results flagged for a closer look

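Neutrophil genes of haematopoietic cells moved in opposite directions in the control and RA pairs, with a median log2 ratio of 7 over 4 dpf of 1.24 in control callus and -1.97 in RA callus. *S100a8* was at 1121 and then 3193 CPM in control (log2 1.51) and at 11120 and then 2562 in RA callus (-2.12). *Lcn2* was at 74.4 and then 235 CPM in control (1.65) and at 808 and then 213 in RA callus (-1.92). For both genes the conditions were farther apart at 4 than at 7 dpf. Fibroblast precursor genes of mesenchymal cells also moved in opposite directions, with a median log2 ratio of -1.21 in control and 1.35 in RA callus. The size of the control value depended on the upper limits on a cell, as given above. *Pi16* was at -1.83 in control and 1.95 in RA callus, and *Cd34* at -1.21 and 1.35. Each pair is 1 library against 1, so neither difference was tested, and pool and condition cannot be told apart.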

How the results depend on the processing

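No paired analysis was possible because each time point has 1 library. The order of the shares at 4 and 7 dpf was the same for haematopoietic and mesenchymal cells in every setting tried. With looser cell limits the haematopoietic share was 55.9% and then 35.4%, the endothelial 10.5% and then 10.7%, and the mesenchymal 20.8% at 4 dpf. With cells that held genes of another compartment left out, these shares were 51.1% and then 20.7% for haematopoietic, 11.7% and then 28.8% for mesenchymal, and 10.2% at 7 dpf for endothelial cells. Without the *Col1a1* limit they were 64.7% and then 41.4% for haematopoietic and 14.7% and then 31.4% for mesenchymal cells, and 763 in place of 180 haematopoietic genes rose. A pseudocount of 10 CPM, which shrinks the ratios of low genes by construction, left 27 rises and 14 falls in haematopoietic, 76 and 10 in endothelial, and 94 and 86 in mesenchymal cells. Endothelial rises numbered 148 with cells that held genes of another compartment left out and 209 with the narrower mix of cells, and mesenchymal rises 152 with the narrower mix. Mesenchymal falls numbered 127 with looser cell limits. Of the named genes that rose or fell, the direction turned for *Prtn3* (0.46) and *Pth1r* (-0.14) with the narrower mix, for *Cpa3* with cells of mixed genes left out (-0.42) or weighted equally (-0.37), for *Hbb-bt* with doublets left out (0.38), and for mesenchymal *Spp1* with looser limits (-0.20), and the cause was not tested. Of all 326 named genes, most of them short of the limit of 1, the sign changed for 38 with looser limits, 13 with mixed cells left out, 14 without the *Col1a1* limit, 8 with TMM scaling, 8 with cells weighted equally and 2 with doublets left out, of which *Hba-a2* in endothelial cells went from -0.99 to 0.30, and for 21 of 313 with the narrower mix. Of 101 named genes that rose or fell, 27 no longer reached 1 with looser limits, 22 with a pseudocount of 10 CPM, 9 with cells weighted equally, 9 without the *Col1a1* limit, 4 with TMM scaling, 3 with mixed cells left out, 1 with doublets left out and none with at least 10 UMIs, and with the narrower mix it was 22 of 94. Of 32 named genes with at least 10% of their UMIs in 1 cell, 24 rose or fell, and 2 no longer did without that cell, which were *Mcpt4* in haematopoietic cells (-0.05 in place of -2.80) and *Cxcl10* in endothelial cells (0.89 in place of 1.04).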

Other observations

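A group of imprinted growth genes, put together after their values were seen, was higher at 7 dpf. Their counts beside the shares of all genes are thus a description and no test. In mesenchymal cells 6 of 13 compared genes rose and none fell, with a median log2 ratio of 0.86, against the 1.61% of all mesenchymal genes compared that rose. In haematopoietic cells 8 of 13 rose (median 1.22, against 1.24% of all genes), and in endothelial cells 5 of 13 (median 0.69, against 2.56%). The list summed to far less there, to 114 and then 215 CPM in haematopoietic and 635 and then 939 in endothelial cells. In mesenchymal cells it summed to 2275 and then 4596 CPM, and the part of mesenchymal RNA in the other compartments was not tested. Of its members in mesenchymal cells, *Dlk1*, a transmembrane protein of progenitors, went from 10.2 to 196 CPM (4.14). *Igf2*, a fetal growth factor, went from 15.1 to 122 (2.93), and *Mest* from 151 to 698 (2.20). At 7 dpf 90% of the *Dlk1* UMIs were in 289 mesenchymal cells (9.72%), and the 261 cells with at least 5 *Col2a1* UMIs held 1.31% of them, against 96.8% of the *Hapln1* UMIs. *Dlk1* had a UMI in 2.12% and then 15.9% of thinned mesenchymal cells, against 0.0580% and 1.28% of haematopoietic cells. The median of the list was 1.11 in mesenchymal cells of RA callus.

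Complement genes, also grouped after their values were seen, were lower in mesenchymal cells for all 10 compared, of which 6 fell, against 1.53% of all genes (median -1.46, summed level 2859 and then 1064 CPM). This count too is a description and no test. The median of the same genes was 0.21 in RA callus. *C3*, the central component, went from 695 to 167 CPM (-2.05).

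Control cells in none of the gates numbered 456 at 4 dpf and 1040 at 7 dpf. Markers of mesenchymal cells were the highest in them, at 10370 and then 13154 CPM. At least 3 UMIs of these markers were in 84.0% and then 96.4% of the ungated cells. Haematopoietic markers were at 2222 and then 3021 CPM, with at least 3 UMIs in 49.3% and then 43.8% of the ungated cells. The other markers named here were lower. Summed markers of muscle stem cells were at 862 and then 457 CPM in the ungated cells, and those of pericytes and smooth muscle at 867 and then 911. Those of Schwann cells were at 233 and then 383, and those of erythroid cells at 389 and then 786. At least 3 UMIs of muscle stem cell markers were in 52.6% and then 39.3% of these cells, and of Schwann cell markers in 7.89% and then 11.2%.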
